A study of Mus musculus with 10 samples.

Results

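The genes described here carry interferon and other cytokine signals from the cell surface to the nucleus. They were chosen by symbol as 31 genes of 7 roles: 5 receptor chains, 3 Janus kinases, 5 STAT transcription factors, 8 interferon regulatory factors (IRFs), 4 SOCS-family inhibitors, 4 protein tyrosine phosphatases and 2 PIAS proteins. All 31 were found by Ensembl identifier among the 53379 genes of the deposited count table, and 29 were expressed well enough to be tested. RNA was sequenced from MC38 cells, a single mouse colon carcinoma line, grown in C57BL/6J mice fed a control diet (5 mice) or a high-fat diet (5 mice). Tumors were taken 21 days after implantation, and each mouse gave 1 library of cells sorted as positive for the fluorescent marker dTomato and negative for CD45, a surface protein of all leukocytes. Every group shares the tumor line, the host strain and the sort. The sources used here do not give what the diets contained, how long they were fed, or the age and sex of the mice. The comparison was high-fat against control diet, and p-values weigh the diet difference against the spread between libraries, 1 per mouse.

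In this pathway an interferon brings a pair of receptor chains together, and the Janus kinases bound to them phosphorylate STAT proteins. Type I interferon acts through Ifnar1, Ifnar2, Jak1 and Tyk2 and assembles a complex that contains Stat2 and Irf9 and binds interferon-stimulated response elements, while interferon gamma acts through Ifngr1, Ifngr2, Jak1 and Jak2 and drives genes with gamma-activated sites. Several of the pathway's own parts, Irf1, Irf7, Irf9, Stat2, Socs1 and Socs3 among them, are known to be induced by the signal they carry or restrain.

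Libraries held between 17050797 and 18653705 counts in control mice and between 16513388 and 17154050 in high-fat mice, and a count of 3 corresponded to between 0.158 and 0.183 CPM (counts as a rate over the library total, with library totals scaled by the TMM method so that libraries can be compared). The cells carry the label of tumor cells of a carcinoma line, but epithelial markers were near 0: the 8 markers, Epcam and the keratins Krt8, Krt18 and Krt19 among them, together summed to between 1.42 and 6.23 CPM in control and between 1.17 and 3.18 CPM in high-fat libraries, and only Cdh1 was high enough to test. The 8 fibroblast and mural markers had far larger sums, between 1438 and 2093 CPM in control and between 1185 and 2147 CPM in high-fat libraries. Most of this came from Dcn, a matrix proteoglycan (967 ± 207 and 1036 ± 239 CPM), and Pdgfra, a growth factor receptor of mesenchymal cells (367 ± 59.1 and 399.7 ± 83.6 CPM). The list was uneven. Diet means of Col1a1, Pdgfrb and Postn lay between 84.4 and 158 CPM. Lum had 19.2 ± 12.2 and 9.15 ± 10.4 CPM and Acta2 1.33 ± 0.712 and 1.60 ± 0.531 CPM. Rgs5, at 0.202 ± 0.313 and 0.273 ± 0.0656 CPM, was too low to test. Leukocyte transcripts were present in spite of the CD45 gate. The 13 macrophage markers, all 13 with negative changes on the high-fat diet at an unadjusted p under 0.05 and none past the adjusted threshold in edgeR, summed to between 61.6 and 455 CPM in control and between 28.0 and 70.3 CPM in high-fat libraries, and the 8 pan-leukocyte markers to between 18.9 and 191 and between 15.4 and 53.2 CPM. Control mice 3 and 4 had the highest sums of both lists. The 13 T and NK cell markers summed to between 0.849 and 27.9 and between 2.45 and 18.5 CPM, and B cell and neutrophil markers to at most 0.733 and 2.27 CPM in any library. Fewer cells of a type and less RNA per cell cannot be told apart in such bulk libraries.

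Across the 31 genes, length-scaled levels (CPM per kb of annotated exon) ranged from 119 down to 0.0283. Irf1, a transcription factor induced by interferon gamma, was highest at 119 ± 16.4 CPM per kb (SD, n = 10), and Socs3, the feedback inhibitor of cytokine receptors that signal through gp130, was next at 103 ± 18.3. The ranges of these 2 genes over libraries overlapped each other and lay above those of all others. A broad middle group followed, from Ptpn11 at 36.5 ± 2.92 to Tyk2 at 3.75 ± 0.486 CPM per kb, in which all but 2 neighbouring pairs in the order had overlapping ranges. Far below came Ptpn6 (1.18 ± 1.25), Irf8 (0.719 ± 0.631) and Socs2 (0.163 ± 0.0596). Cish, an inhibitor induced by STAT5, and Irf4, a lymphocyte factor, were too low to test, with 111 and 24 counts over all 10 libraries. Counts of Stat5a and Stat5b are less certain because 10.8% and 11.8% of the 50-base windows along their transcripts also occur in the other gene. Counts are also less certain for Il10rb (19.5%), Cish (13.2%), Ifnar2 (8.87%), Socs2 (7.23%) and Ptpn6 (6.73%), which share windows with other genes.

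**Figure D1:**
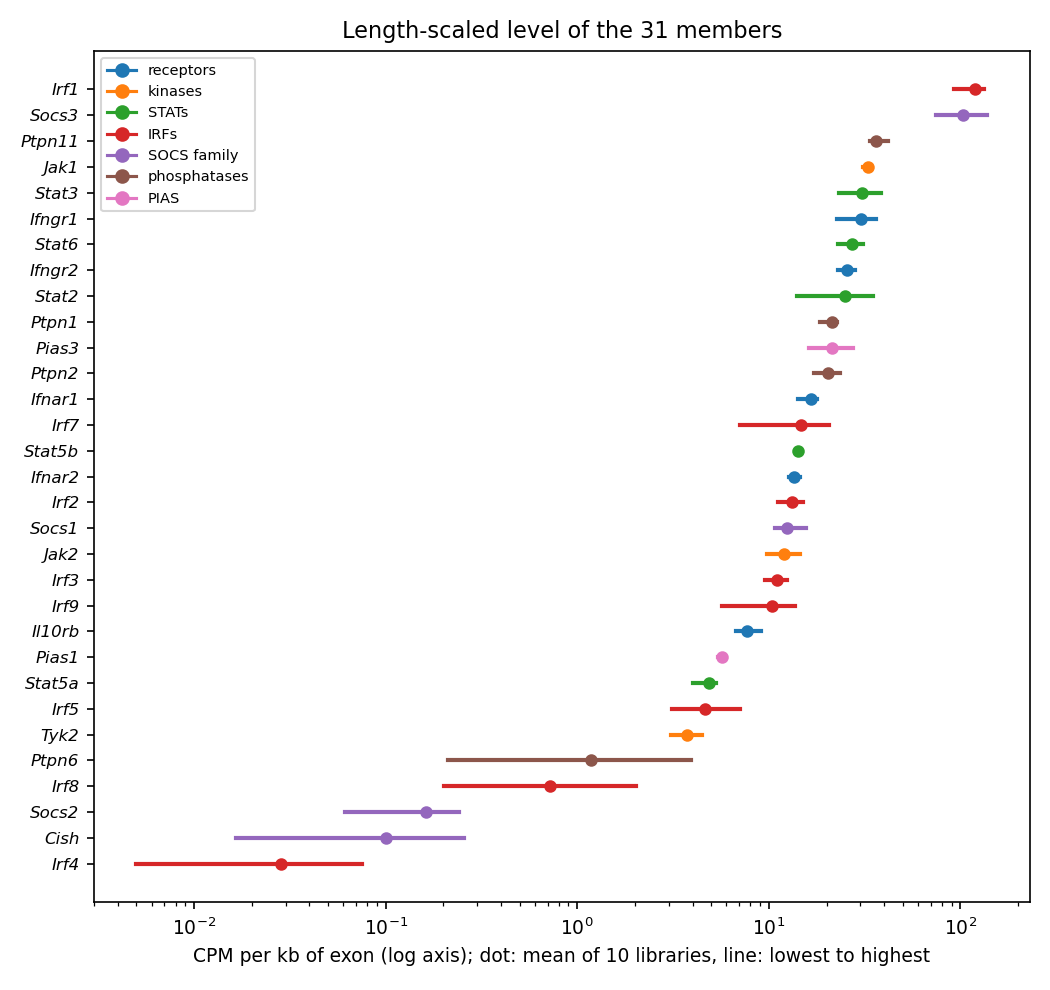
Length-scaled level of each of the 31 genes on a log axis, in CPM per kb of exon, coloured by role; dots are means of 10 libraries and lines run from the lowest to the highest library. Irf1 and Socs3 lie above all other members in all libraries, the lowest of them at 74.6 CPM per kb, and Irf4, with 2 libraries at 0 counts, has its line drawn from 0.005.

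None of the 29 tested genes passed the test between diets (edgeR's quasi-likelihood test, Benjamini-Hochberg adjustment over all 14337 genes tested, threshold 0.05), where 0.0628% of all genes did (0.0418% higher on the high-fat diet). Their median log2 change, high-fat minus control, was 0.01, equal to the median of all genes tested, with 16 genes positive (51.4% of all genes were) and 13 negative. For 22 of the 29 the change was smaller than 0.25 in size. At an unadjusted p under 0.05 there were 7 genes: Irf9, Irf7, Stat2, Ifngr1, Irf1 and Irf3 with higher means on the high-fat diet and Socs3 with a lower one. These are 24.1% of the 29, against 12.1% of all genes at the same unadjusted threshold. The 6 higher ones are 20.7% of the 29, where 5.45% of all genes were higher. The lowest adjusted p of any member was 0.249, for Irf9. DESeq2 also called 0 of the members, where it called 2.07% of all genes (0.633% higher). limma-voom called 0 as well, where it called 0.0349% of all genes (0.0209% higher). Both gave the same 7 genes at an unadjusted p under 0.05.

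**Figure D2:**
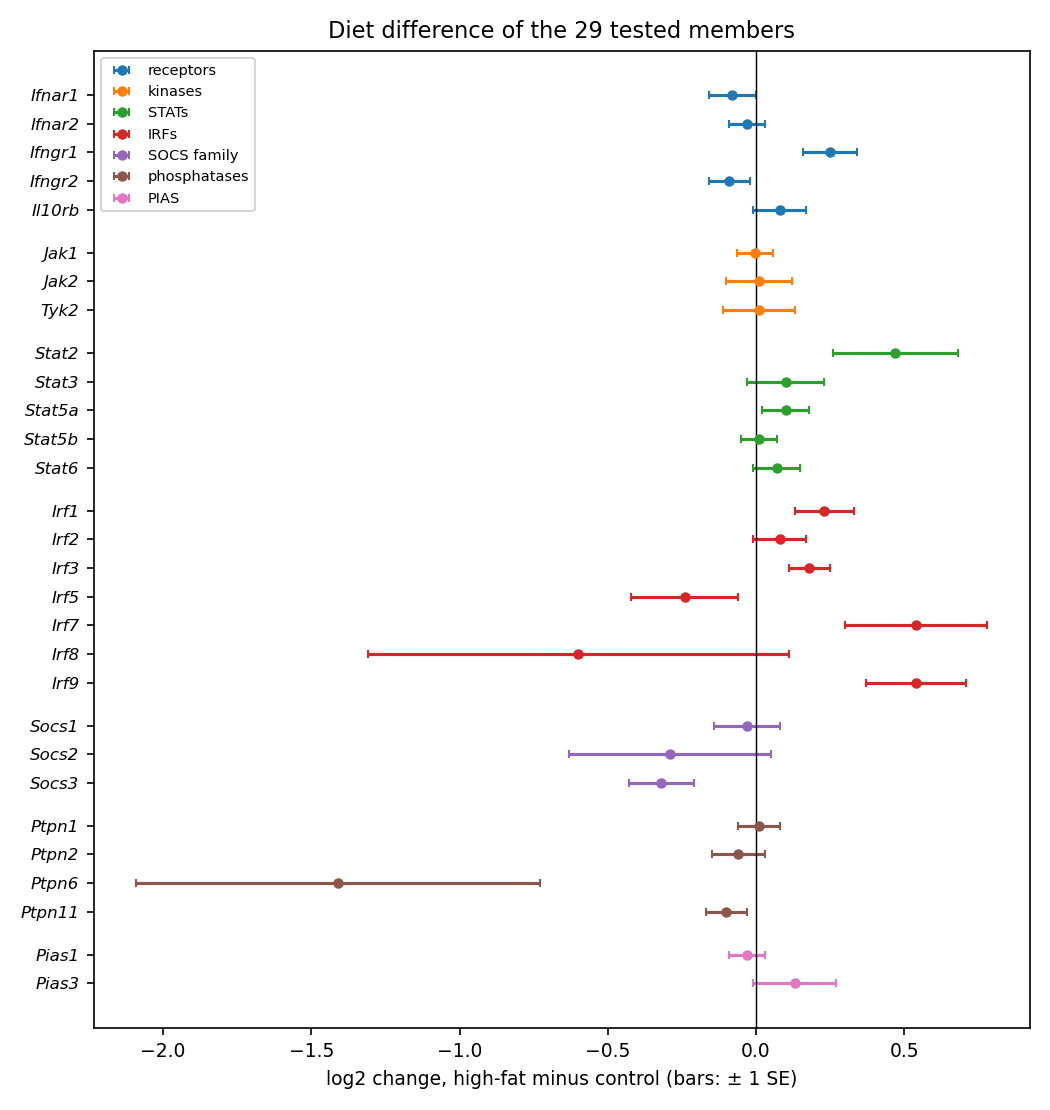
Log2 change of the 29 tested genes, high-fat minus control, grouped and coloured by role; dots are edgeR estimates and bars ± 1 SE. Receptors other than Ifngr1, the kinases, and the PIAS proteins lie near 0, Irf7, Irf9 and Stat2 lie farthest to the right, and Irf8 and Ptpn6 have the widest bars.

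Promoter stretches are shown for the letters through which STAT and IRF proteins are known to act, in members that are themselves outputs of the pathway. Promoter windows from RefSeq (GRCm38.p6, 250 bases before to 50 after the annotated start) were found for 28 of the 31 genes (all but Socs2, Ptpn2 and Il10rb), 34 windows in all. Both strands were searched for an interferon-stimulated response element read as GAAA, any 2 bases and GAAA (ISRE), and for a gamma-activated site read as TTCNNNGAA (GAS, N any base), which reads the same on both strands. The GAS letters were present in 7 of the 34 windows, those of Irf1, Irf2, Irf8, Socs3, Cish, Ifnar1 and Ifnar2, and in 8.3% of all 32851 windows. The ISRE letters were present in 3 of the 34, those of Socs1, Stat2 and Irf2, and in 3.44% of all windows. A longer form with 4 free bases between TTC and GAA, the spacing Stat6 is known to prefer, was in 3 (Stat2, Irf9 and Ifngr2) and in 6.95% of all. Within only the 200 bases before the start, GAS was in 3 genes (Irf1, Irf8 and Socs3), ISRE in 1 (Socs1) and the longer form in 1 (Ifngr2), against 5.49%, 2.27% and 4.53% of all windows. Stretches are printed 5′ to 3′ on the gene's strand with matches in capitals: Irf1 (chr11:53769889-53769967, plus strand) and Socs3 (chr11:117969477-117969555, minus strand) with 1 GAS each, Irf8 (chr8:120736152-120736248, plus strand) with 2 GAS, Socs1 (chr16:10785569-10785654, minus strand) with 2 overlapping ISRE, and Stat2 (chr10:128270248-128270332, plus strand) with an ISRE on the opposite strand followed by the longer form.
Irf1: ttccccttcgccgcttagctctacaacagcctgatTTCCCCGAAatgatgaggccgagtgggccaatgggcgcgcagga
Socs3: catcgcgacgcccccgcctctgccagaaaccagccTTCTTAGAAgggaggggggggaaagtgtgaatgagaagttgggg
Irf8: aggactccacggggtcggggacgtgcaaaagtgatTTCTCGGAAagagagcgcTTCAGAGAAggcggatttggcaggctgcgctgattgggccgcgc
Socs1: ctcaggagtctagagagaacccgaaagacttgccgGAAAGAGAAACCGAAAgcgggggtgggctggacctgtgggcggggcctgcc
Stat2: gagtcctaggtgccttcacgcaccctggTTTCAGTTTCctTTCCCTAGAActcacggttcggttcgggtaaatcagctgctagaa
For comparison, the stretch before Irf7 (chr7:141266482-141266674, minus strand), cut where annotated Irf7 exons begin, held none of the 3 forms.
Irf7: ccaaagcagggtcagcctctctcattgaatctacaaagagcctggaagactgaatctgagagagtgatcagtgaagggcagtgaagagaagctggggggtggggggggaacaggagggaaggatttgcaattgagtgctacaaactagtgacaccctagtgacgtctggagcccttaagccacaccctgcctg
A match is a description of letters and not a measured binding site, and among the GAS genes Irf1 had a higher and Socs3 a lower mean on the high-fat diet.

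Of the receptors, Ifngr1, the ligand-binding chain for interferon gamma (chr10:19591949-19610229; all gene positions are on GRCm38), was the most abundant per length (30.2 ± 3.96 CPM per kb) and the only one of the 5 with an unadjusted p under 0.05. Its values were 72.3, 64.8, 85.0, 90.7 and 79.8 CPM in control mice 1 to 5 and 87.4, 103, 96.9, 90.7 and 87.7 CPM in high-fat mice 1 to 5. All 5 high-fat libraries lay above the control median, and 2 lay above the highest control. The means were 78.5 ± 10.2 and 93.2 ± 6.84 CPM (SD, n = 5 each), and edgeR put the log2 change at 0.25 (SE 0.09) with an adjusted p of 0.3.

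Genes for the other 4 receptor chains are neighbours on chromosome 16, in the order Ifnar2 (chr16:91372783-91405589), Il10rb (chr16:91406164-91425834), Ifnar1 (chr16:91485238-91507441) and Ifngr2 (chr16:91547072-91565623), all on the plus strand. Their log2 changes were -0.03 (SE 0.06), 0.08 (SE 0.09), -0.08 (SE 0.08) and -0.09 (SE 0.07). Ifnar1 and Ifnar2 form the receptor for type I interferon, and Ifngr2 is the signalling chain of the interferon gamma receptor. Il10rb, a chain shared by the receptors for interleukin 10, interleukin 22 and interferon lambda, was the least abundant receptor. It stood at 29.3, 25.6, 27.3, 28.1 and 31.7 CPM in the control libraries and 34.8, 28.0, 27.8, 31.2 and 28.6 CPM in the high-fat ones, and the diets overlapped. Ifnar2 varied least among receptors, between 42.2 and 48.5 CPM in control and between 42.3 and 47.0 CPM in high-fat libraries. The 95% interval of its diet difference, -0.17 to 0.10 on the log2 scale, bounds what these 10 libraries could have missed. Ifnar1 lay between 90.9 and 105 and between 84.7 and 106 CPM in the same order of diets.

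The kinases had the smallest differences of any role. Jak1, which serves both interferon receptors, was the most abundant per length at 32.8 ± 1.34 CPM per kb and stood at 244, 227, 243, 226 and 248 CPM in control mice 1 to 5 and 224, 244, 242, 246 and 228 CPM in high-fat mice 1 to 5. These values are interleaved between the diets, with a log2 change of -0.0024 (SE 0.06; 95% interval -0.13 to 0.13). Tyk2, the partner of Jak1 at the type I receptor and the least abundant kinase, stood at 22.7, 23.1, 30.9, 24.0 and 27.4 CPM in the control libraries and 22.9, 27.7, 29.1, 28.3 and 21.1 CPM in the high-fat ones. Its diets overlapped as well, and its log2 change was 0.01 (SE 0.12), with a wider interval of -0.24 to 0.26. Jak2, which pairs with Jak1 at the interferon gamma receptor, ranged from 50.3 to 73.2 CPM in control and from 49.2 to 67.2 CPM in high-fat libraries, with a log2 change of 0.01 (SE 0.11). The sign of all 3 kinase changes flipped under some of the alternative fits.

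Among the STATs, Stat2, the partner of Irf9 in the type I interferon complex (chr10:128270559-128292849), had the largest difference. It stood at 116, 83.6, 166, 165 and 89.0 CPM in control mice 1 to 5 and 138, 192, 206, 179 and 138 CPM in high-fat mice 1 to 5. Control mice 3 and 4 lay inside the high-fat range and control mice 1, 2 and 5 below all 5 high-fat libraries. The means were 124 ± 39.7 and 171 ± 31.3 CPM, and the edgeR log2 change was 0.47 (SE 0.21), adjusted p = 0.4. Stat3, which carries signals of the interleukin 6 family, was the most abundant STAT per length. Its values were 271, 232, 336, 279 and 291 CPM in the control libraries and 281, 366, 319.6, 326 and 222 CPM in the high-fat ones, and both the highest and the lowest of the 10 were high-fat libraries. The log2 change of Stat3 was 0.10 (SE 0.13). Stat5a, one of the pair of STATs activated by growth hormone, prolactin and many interleukins, was the least abundant STAT, at 32.6, 28.6, 36.3, 34.7 and 35.4 CPM in the control libraries and 36.1, 37.8, 37.4, 35 and 32.7 CPM in the high-fat ones, with overlapping diets. Its close relative Stat5b had one of the steadiest levels of all members, with a coefficient of variation of 3.73% in control and 3.04% in high-fat mice. Stat6, the interleukin 4 and 13 factor, had a log2 change of 0.07 (SE 0.08), and values of 102 to 137 and 118 to 128 CPM.

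The IRFs held 4 of the 7 genes with an unadjusted p under 0.05. Irf9, the DNA-binding part of the type I interferon complex (chr14:55603571-55610030), stood at 43.6, 34.9, 59.6, 59.8 and 30.8 CPM in control mice 1 to 5 and 59.8, 67.9, 74.1, 61.8 and 69.8 CPM in high-fat mice 1 to 5. It was the only member in which all 5 high-fat libraries lay above all 5 control libraries, 1 of 29 (3.45%) against 2.18% of all genes tested with groups that did not overlap in either direction (1.08% above and 1.1% below). The gap was narrow: the highest control, mouse 4, and the lowest high-fat library, mouse 1, were both 59.8 CPM when rounded. With counts scaled by library size alone or by DESeq2 size factors, 0 members had groups that did not overlap. The means of Irf9 were 45.7 ± 13.6 and 66.7 ± 5.84 CPM, a 1.46-fold difference, and the edgeR log2 change was 0.54 (SE 0.17), adjusted p = 0.249.

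Irf7, the amplifier of type I interferon production (chr7:141262706-141266481), stood at 51.1, 26.7, 52.6, 65.4 and 29.9 CPM in control mice 1 to 5 and 47.9, 75.6, 77.6, 62.8 and 65.0 CPM in high-fat mice 1 to 5. Control mice 2 and 5 were lowest, as they were for Stat2, Irf1 and Irf9, and high-fat mice 2 and 3 were highest. The means were 45.2 ± 16.4 and 65.8 ± 11.9 CPM and the log2 change 0.54 (SE 0.24), with adjusted p = 0.385 in edgeR. Irf1 (chr11:53770014-53778374) stood at 407, 366, 516, 521 and 374 CPM in the control libraries and 494, 521, 499, 517 and 531 CPM in the high-fat ones. The high-fat libraries lay close together, with a coefficient of variation of 2.99%, while the control libraries split into mice 3 and 4 inside the high-fat range and mice 1, 2 and 5 below it (17.4%). Its log2 change was 0.23 (SE 0.10), with adjusted p = 0.402 in edgeR.

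Irf3, the constitutive factor downstream of nucleic acid sensors, had a smaller difference with little spread. Its values were 32.9, 35.1, 37.1, 36.3 and 36.7 CPM in the control libraries and 42.9, 42.0, 40.5, 40.3 and 36.2 CPM in the high-fat ones, so that 4 of 5 high-fat libraries lay above the highest control and mouse 5 lay among the controls. In edgeR its log2 change was 0.18 (SE 0.07), adjusted p = 0.304. Irf2, known as an antagonist of Irf1 at shared sites, had a log2 change of 0.08 (SE 0.09) and ranged from 82.8 to 108 CPM in control and from 83.7 to 111 CPM in high-fat libraries. Irf4 had between 0 and 7 counts in a library and at most 0.370 CPM. At that depth a diet difference was not detectable.

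**Figure D3:**
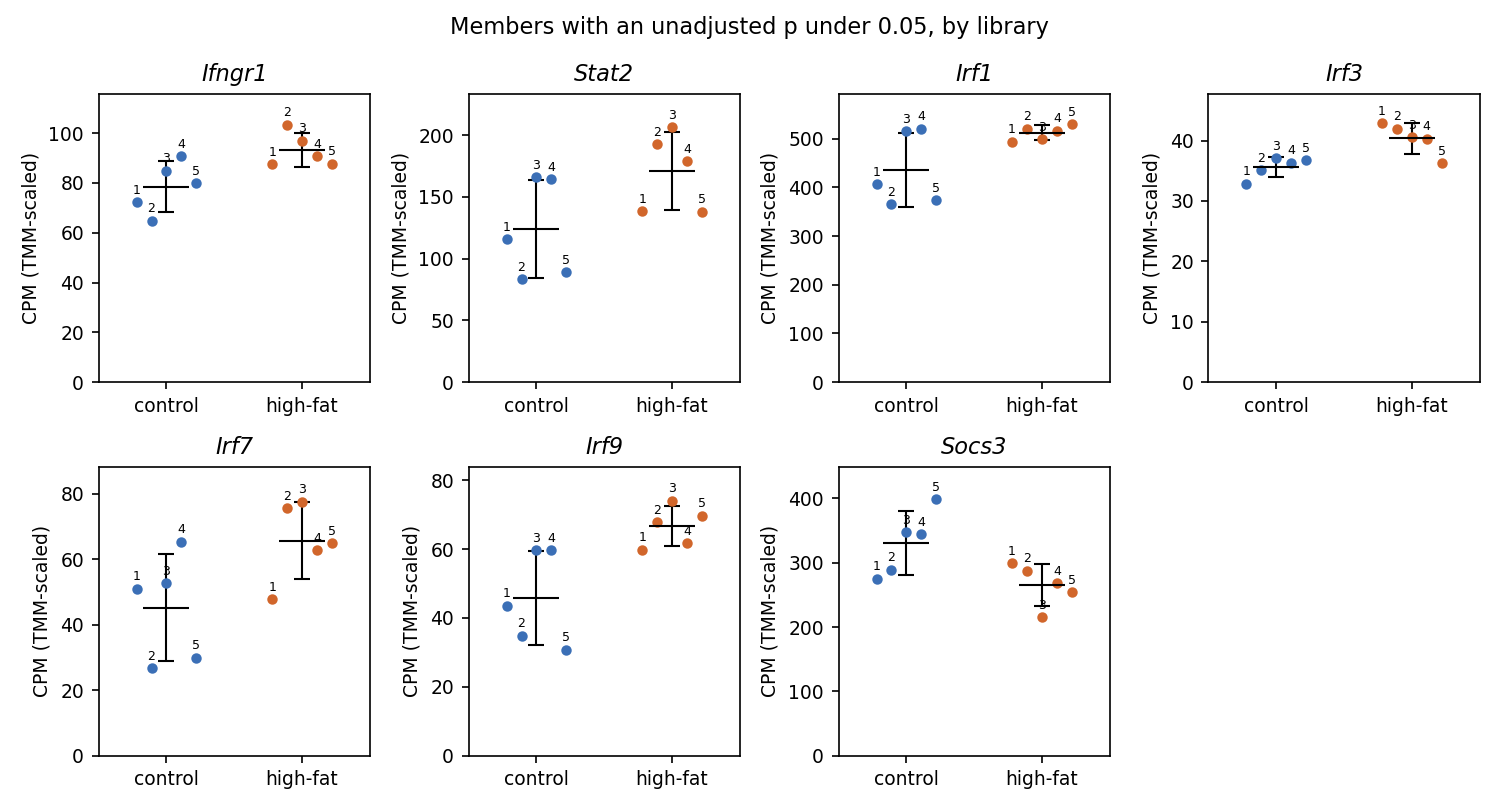
TMM-scaled CPM in each library for the 7 genes with an unadjusted p under 0.05; points are libraries, numbered by mouse, and black bars are means ± SD of 5 mice per diet. Control mice 2 and 5 are lowest for Stat2, Irf1, Irf7 and Irf9, control mice 3 and 4 reach or nearly reach the high-fat range in these genes, and Socs3 is shifted the other way.

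Irf5 and Irf8, IRFs of myeloid cells and lymphocytes, and Ptpn6, the phosphatase SHP-1 of blood cells, had wide ranges over libraries. Irf8 stood at 3.14, 1.65, 10.1, 14.2 and 1.42 CPM in control mice 1 to 5 and 1.43, 6.04, 8.30, 2.48 and 1.98 CPM in high-fat mice 1 to 5. The highest were control mice 3 and 4 and high-fat mice 2 and 3, so both diets held high and low libraries, and the log2 change of -0.60 (SE 0.71) had an interval of -2.16 to 0.96. Ptpn6 stood at 2.37, 1.01, 8.57, 10.9 and 1.08 CPM in the control libraries and 0.596, 2.45, 2.69, 1.48 and 1.81 CPM in the high-fat ones. Control mice 3 and 4 were far above the other 8 libraries, and the means were 4.79 ± 4.63 and 1.80 ± 0.831 CPM, and edgeR put the log2 change at -1.41 (SE 0.68), with an unadjusted p of 0.0638 and an adjusted p of 0.456. Without control mice 3 and 4 this change was 0.28 and that of Irf8 0.97. Irf5 was steadier, between 11.2 and 20.6 CPM in control and between 9.05 and 15.6 CPM in high-fat libraries, with a log2 change of -0.24 (SE 0.18).

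The levels of these 3 genes were set beside the mean log2 CPM of the pan-leukocyte markers over the 10 libraries, in a family of 16 relations. For Ptpn6 Pearson's r was 0.97 (permutation p = 3e-05, adjusted p = 0.00048) and Spearman's rho 0.92 (permutation p = 0.00043, adjusted 0.0031). For Irf8 r was 0.92 (permutation p = 9e-05, adjusted 0.00048) and rho 0.88 (permutation p = 0.0016, adjusted 0.0051). For Irf5 r was 0.89 (permutation p = 0.00026, adjusted 0.00069) and rho 0.92 (permutation p = 0.00059, adjusted 0.0031). Leaving out control mice 3 and 4, the libraries farthest from the median of the marker level, r was 0.91, 0.83 and 0.90 in that order. Against the macrophage markers r was lower, at 0.89, 0.71 and 0.82 (permutation p = 0.0016, 0.022 and 0.0023; adjusted 0.0032, 0.035 and 0.004), rho was 0.68, 0.59 and 0.71 (permutation p = 0.035, 0.078 and 0.027; adjusted 0.063, 0.13 and 0.053), and r was 0.54, 0.19 and 0.69 without those 2 mice, so the macrophage relation of Ptpn6 and Irf8 rests on them. No relation passed for Irf4 or Socs3 (r between 0.16 and 0.50, permutation p between 0.15 and 0.65; rho between 0.09 and 0.48, permutation p between 0.17 and 0.82; adjusted p between 0.21 and 0.82). Without control mice 3 and 4, r for Irf4 was -0.20 with the macrophage and 0.48 with the pan-leukocyte level, and for Socs3 0.16 and -0.34. With 5 libraries per diet, no relation was computed within a diet, so r and its p-value include any shift between the diets.

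**Figure D4:**
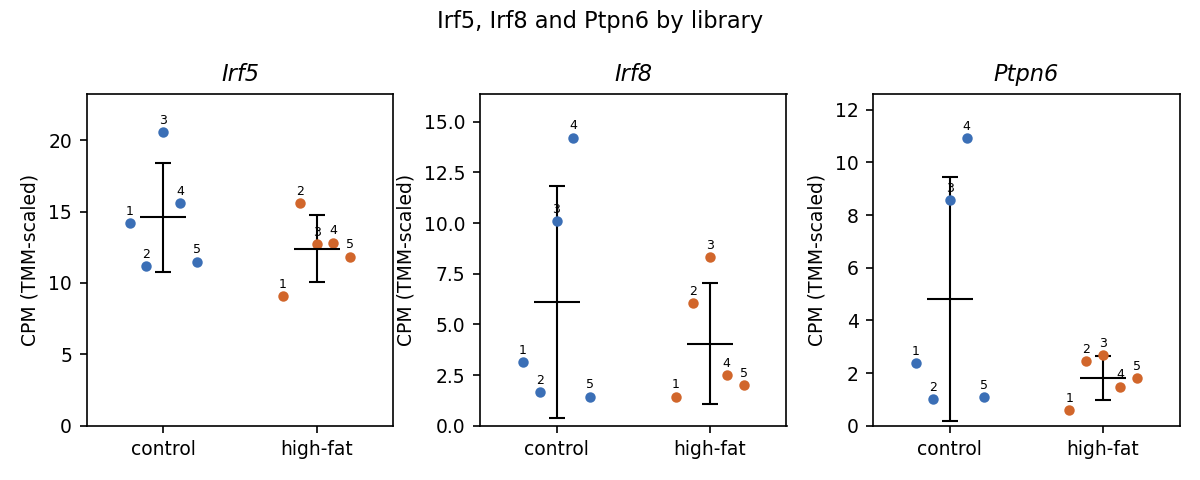
TMM-scaled CPM of Irf5, Irf8 and Ptpn6 in each library, numbered by mouse, with means ± SD of 5 mice per diet as black bars. Control mice 3 and 4, the libraries with the highest leukocyte marker levels, are highest for Irf8 and Ptpn6.

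Of the SOCS family, Socs3 (chr11:117966079-117970047) was the only member of the 29 with a lower mean on the high-fat diet and an unadjusted p under 0.05. It stood at 275, 289, 348, 345 and 399 CPM in control mice 1 to 5 and 299.9, 288, 216, 268 and 254 CPM in high-fat mice 1 to 5. The lower 3 high-fat libraries, mice 3, 4 and 5, lay below all controls, and high-fat mice 1 and 2 lay between control mice 1 and 3. The means were 331 ± 49.8 and 265 ± 32.7 CPM, and the edgeR log2 change was -0.32 (SE 0.11), adjusted p = 0.276. Socs1, the kinase inhibitor induced by interferon, had a log2 change of -0.03 (SE 0.11) and ranged from 32.2 to 43.1 CPM in control and from 31.3 to 45.2 CPM in high-fat libraries. Socs2, an inhibitor of growth hormone signalling, was the least abundant tested member of this role. Its values were 2.31, 2.23, 0.583, 1.64 and 1.76 CPM in the control libraries and 1.61, 1.43, 1.59, 1.72 and 0.641 CPM in the high-fat ones, from as few as 10 counts in a library, and the interval of its log2 change was -1.03 to 0.45. Cish had between 2 and 27 counts in a library, and its highest value was 1.65 CPM, in high-fat mouse 3.

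The phosphatases other than Ptpn6 and the PIAS proteins had no unadjusted p under 0.05. Ptpn11, the phosphatase SHP-2 that relays growth factor signals, was the most abundant phosphatase per length. It stood at 312, 310.2, 256, 277 and 258 CPM in control mice 1 to 5 and 261, 260.5, 252, 265 and 279.7 CPM in high-fat mice 1 to 5; the diets overlapped and the log2 change was -0.10 (SE 0.07). Ptpn1 (PTP1B) and Ptpn2 (TC-PTP), which remove phosphate from Janus kinases and STATs, had log2 changes of 0.01 (SE 0.07) and -0.06 (SE 0.09). Pias3, a partner of Stat3, stood at 68.7, 68.3, 95.6, 77.0 and 87.3 CPM in the control libraries and 76.8, 99.2, 108, 88.5 and 63.2 CPM in the high-fat ones, with coefficients of variation of 15.0% and 20.2% and a log2 change of 0.13 (SE 0.14). Pias1, a SUMO ligase that restrains STAT activity, stood at 38.7, 37.0, 41.0, 40.1 and 39.2 CPM in the control libraries and 37.9, 38.8, 37.7, 39.3 and 37.8 CPM in the high-fat ones. Its coefficients of variation were 3.86% in control mice, where only Stat5b was lower, and 1.90% in high-fat mice, the lowest of all members, and its log2 change was -0.03 (SE 0.06).

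Genes that interferon switches on had positive changes in all tested cases, while the receptors and kinases had median log2 changes of -0.03 and 0.01. Of 30 targets fixed as a list, 29 were tested, all 29 had a positive change, and their median log2 change was 0.58, against 0.01 for all genes. The target that was too low to test, Ciita, the activator of MHC class II genes, had a lower mean on the high-fat diet, at 1.48 ± 1.30 and 0.404 ± 0.169 CPM, with 0 of 5 high-fat libraries above the control median. In edgeR 0 passed over all genes and 21 had an unadjusted p under 0.05, all higher, where 5.45% of all genes were higher at that threshold. Earlier results of these data already showed higher interferon-induced genes, so this list is not independent evidence. Genes induced by the same signal are also not separate observations of a diet difference. Bst2, which tethers budding virus, had means of 154 ± 32.9 and 233 ± 21.2 CPM, a difference of 0.60 (SE 0.13) on the log2 scale (adjusted p = 0.125 in edgeR). Zbp1, a sensor of Z-form nucleic acid, had 195 ± 36.7 and 292 ± 31.7 CPM and 0.58 (SE 0.13). The diets did not overlap for Zbp1 and Psmb9, 2 of the 29 tested targets, where 1.08% of all genes tested lay above in this way. Ifit1 and Ifit3, which bind viral RNA or its sensors, had log2 changes of 0.77 (SE 0.21) and 0.90 (SE 0.26). For Isg15, a ubiquitin-like modifier, and Usp18, which removes it and blocks Ifnar2, they were 0.54 (SE 0.16) and 0.54 (SE 0.16). The most abundant targets, B2m and Gbp2, had 0.05 (SE 0.10) and 0.41 (SE 0.21). DESeq2 called 5 targets, all higher (Bst2, Zbp1, Ifit1, Mx2 and Gbp3), where it called 2.07% of all genes (0.633% higher).

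Levels of Irf9, Irf7, Stat2 and Irf1 went with the mean log2 CPM of these targets over the 10 libraries. Like the targets, these members are known to be induced by interferon. Such a relation could be foreseen, whatever the diet does, and is given as a description only. Pearson's r was 0.97 for Irf9 (permutation p = 0.00019, adjusted 0.00069), 0.96 for Irf7 (permutation p = 7e-05, adjusted 0.00048), 0.94 for Stat2 (permutation p = 0.00024, adjusted 0.00069) and 0.94 for Irf1 (permutation p = 0.00079, adjusted 0.0018). Spearman's rho was 0.92, 0.88, 0.84 and 0.73 in that order (permutation p = 0.00058, 0.0016, 0.0039 and 0.02; adjusted 0.0031, 0.0051, 0.01 and 0.045). Without control mice 2 and 5, the libraries farthest from the median target level, r was 0.94, 0.81, 0.79 and 0.76. No relation passed for Socs1 or Ifnar2, with r of -0.02 and 0.00 (permutation p = 0.95 and 0.99, both adjusted to 0.99) and rho of -0.28 and -0.09 (permutation p = 0.43 and 0.81; adjusted 0.53 and 0.82), and r of -0.60 and -0.52 without those 2 mice. The target level itself was lowest in control mice 2 and 5, at 5.85 and 6.00 log2 CPM, and highest in high-fat mouse 3, at 7.10. Irf9, Irf7, Stat2, Irf1 and the targets all had higher means on the high-fat diet, and libraries were permuted across diets. The r and p-values therefore include any shift shared with diet and do not measure variation between mice alone.

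**Figure D5:**
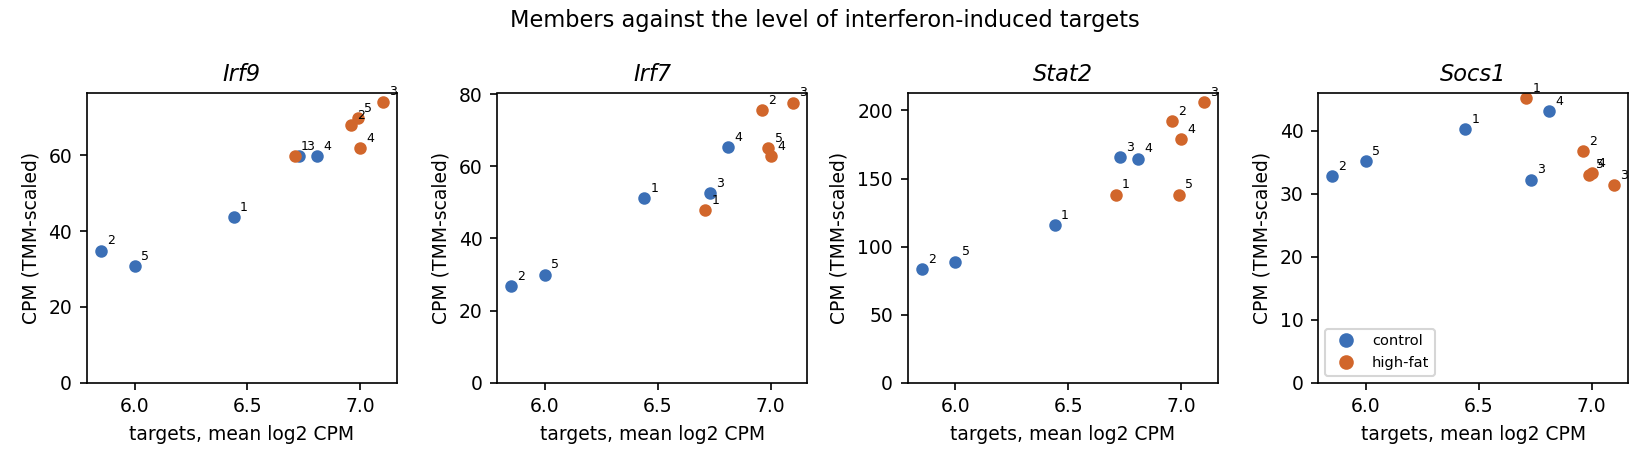
TMM-scaled CPM of Irf9, Irf7, Stat2 and Socs1 in each of the 10 libraries against the mean log2 CPM of the interferon-induced targets, numbered by mouse and coloured by diet. Irf9, Irf7 and Stat2 increase with the target level (r of 0.97, 0.96 and 0.94), and Socs1 shows no such trend (r of -0.02).

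Macrophage markers had a median log2 change of -2.42 and pan-leukocyte markers of -1.21, and fits that take these levels into account gave other calls. The macrophage level, as mean log2 CPM, lay between 1.68 and 4.65 in control and between 0.52 and 2.02 in high-fat libraries. The pan-leukocyte level lay between 1.00 and 4.32 and between 0.79 and 2.59 in the same order. Since both levels go with diet, the diet term of these fits cannot be separated from them. When the pan-leukocyte level entered the fit edgeR called 5 members, all higher: Stat2 (log2 change 0.80, adjusted p = 0.000119), Irf7 (0.93, 0.000266), Irf9 (0.82, 0.000902), Ifngr1 (0.35, 0.0181) and Irf1 (0.37, 0.021), where 3.7% of all genes were called (1.96% higher). The macrophage level gave the same 5, all higher, with adjusted p from 0.000455 (Irf9, log2 change 1.13) to 0.0375 (Ifngr1, 0.47), where 2.21% of all genes were called (1.26% higher). In that fit Irf3 and Socs3 no longer had an unadjusted p under 0.05. Irf8 (log2 change 1.96, adjusted p = 0.112) and Ptpn6 (1.39, 0.0587) did. Without control mice 3 and 4 edgeR called Irf9 (0.87, adjusted p = 0.00543), Irf1 (0.42, 0.0246) and Stat2 (0.83, 0.0263), where 1.89% of all genes were called (0.823% higher). Socs3 had no unadjusted p under 0.05 without these mice. In that subset the diets did not overlap for 5 members (Ifngr1, Stat2, Irf1 and Irf9 above, Socs2 below) and for 10.7% of all genes. Both mice were the highest controls for Ifngr1, Stat2, Irf1, Irf7 and Irf9 and for both marker levels, so these counts are not independent support. With library size as a covariate, edgeR called 0 members and 0 genes, and only Irf9 (log2 change 0.57) had an unadjusted p under 0.05. Library size also went with diet, being mostly lower in high-fat libraries, so the diet term of this fit cannot be separated from it either.

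The ligand list held no interferon alpha gene, and the sort was against leukocytes, so ligand made by them was not surveyed. Most genes of the list were too low to test. Of 20, 8 were tested and 3 had 0 counts in all libraries; Ifnb1 and Ifng had 11 and 10 counts over all 10 libraries, and the lambda interferons Ifnl2 and Ifnl3 and the interleukin Il22 had 0. In edgeR 0 ligands passed over all genes and 2 of 8 had an unadjusted p under 0.05, where 12.1% of all genes did: Il15, a growth factor of NK and T cells, at 6.21 ± 1.36 and 10.1 ± 1.87 CPM (log2 change 0.71, SE 0.17, adjusted p = 0.164), and Lif, an interleukin 6 family ligand that acts through Stat3, at 29.2 ± 7.54 and 16.4 ± 4.74 CPM (log2 change -0.83, SE 0.23, adjusted p = 0.197). DESeq2 called both, where it called 2.07% of all genes. Clcf1, another ligand of the interleukin 6 family, was the most abundant per length, with a log2 change of -0.12 (SE 0.16).

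Other receptor chains (14 of 21 tested, 0 passed in edgeR) had a median log2 change of 0.03. Il6st, the gp130 chain that signals through Stat3, stood at 329.5 ± 50.2 and 334 ± 57.6 CPM, and Il2rg, the common gamma chain, at 32.8 ± 3.87 and 32.6 ± 6.84 CPM. An unadjusted p under 0.05 was found for 2 of the 14, near the 12.1% of all genes. These, Il10ra and Csf2ra, are receptors of myeloid cells, with log2 changes of -2.05 (SE 0.72) and -1.30 (SE 0.54). With the macrophage level as a covariate both changes were positive, at 0.76 and 0.17. That level itself went with diet, and the cause of the change in sign was not tested. Other regulators (23 of 24 tested, 0 passed in edgeR) included 2 higher and 3 lower genes at an unadjusted p under 0.05, where 5.45% of all genes were higher and 6.62% lower. Ifi35, an interferon-induced protein, had 0.40 (SE 0.13) beside Usp18, and the lower ones were the phosphatase gene Ptprj (log2 change -0.70, SE 0.19), the adaptor Sh2b2 (log2 change -0.37, SE 0.13) and the IRF2-binding corepressor Irf2bp2 (log2 change -0.29, SE 0.11). DESeq2 called Ptprj (adjusted p = 0.0343), where it called 2.07% of all genes. Cited2 and Trim28, the most abundant regulators per length, had -0.20 (SE 0.18) and -0.04 (SE 0.08).

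Targets of Stat3, Stat5 and Stat6 were mixed, with 5 positive and 7 negative changes. Of 18, 12 were tested, 0 passed in edgeR, and the median log2 change was -0.15. At an unadjusted p under 0.05 there were 3, all lower, where 6.62% of all genes were lower. Arg1, an arginine-degrading enzyme of macrophages that Stat6 induces, had 9.77 ± 6.05 and 1.32 ± 0.544 CPM (log2 change -2.88, SE 0.51, adjusted p = 0.102). Its diets did not overlap, 1 of the 12 tested, where 1.1% of all genes tested lay below in this way. The kinase Pim1 had -0.42 (SE 0.18) and Myc -0.39 (SE 0.18). Fos and Junb, the most abundant of the list, had -0.18 (SE 0.14) and -0.28 (SE 0.15). The macrophage markers had negative changes on the same diet. DESeq2 called Arg1 (adjusted p = 9.94e-05), where it called 2.07% of all genes. In edgeR the log2 change of Arg1 was -2.23 with the pan-leukocyte level in the fit (adjusted p = 0.0135), -1.60 with the macrophage level (adjusted p = 0.143) and -2.52 without control mice 3 and 4 (adjusted p = 0.0353).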

How the data were processed

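Polyadenylated RNA of 10 libraries was sequenced. The authors deposited raw counts of reads per gene, as whole numbers. Tools named in the submitters' processing notes, with no roles, are BWA 0.7.12, cutadapt 1.15, DESeq2 1.24.0 and FastQC 0.11.5; the builds named are GRCm38 and mm10. The counter, annotation release and strand setting were not given in the sources used here. Reads of genes that overlap on opposite strands therefore cannot be told apart. Among members the largest such overlaps were 14.1% of Irf5, 11.6% of Cish, 8.1% of Tyk2 and 7.0% of Ptpn6 exon bases. By identifier, 53274 of 53379 genes matched GENCODE M21 (GRCm38), the source of symbols, coordinates and exon lengths.

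The test was edgeR 4.0.16 (R 4.3.3; TMM, filterByExpr, robust quasi-likelihood fit with diet as the only term, two-sided), with Benjamini-Hochberg adjustment over 14337 genes. SE is the size of the log2 change over the root of its F statistic. The 95% intervals use the fit's degrees of freedom. Values after ± are SD, over 5 mice per diet or, for levels per kb, 10 libraries. Alternatives were DESeq2 1.42.0, limma 3.58.1 (voom), other filters and scalings, covariates, and left-out libraries. The edgeR script was tested on simulated data. Correlations used 100000 permutations, over all libraries and not within diets, of log2 CPM with a prior count of 2 (for Irf4, log2 of CPM plus 0.1). No library repeated another: chi-square per degree of freedom was at least 8.29 for every pair.

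Members and lists were chosen with earlier results of these data known. Values in every library are given for members with an unadjusted p under 0.05, with groups that do not overlap, or with the highest or lowest level among the tested members of their role; Irf4 and Cish, not tested, are given by their counts. In other lists, up to 6 genes with the lowest unadjusted p under 0.05 and the 2 most abundant are named; further names were chosen after their values were seen. The floor of 3 counts covers counting error only: reads were not tagged by molecule.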

Additional observations from a re-analysis of the deposited data

Results flagged for a closer look

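In control mice Ifnar1 was 90.9 CPM in mouse 3 and at least 102 CPM in the other 4, a gap of 0.76 of the group's range. In high-fat mice Socs2 was 0.642 CPM in mouse 5 and at least 1.43 CPM in the other 4, a gap of 0.738 of the range. Both gaps passed Dixon's 95% critical value of 0.71 for 5 samples. Chance gives about 1 such gap in 20 groups, and 62 groups were looked at.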

How the results depend on the processing

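The number of members called was 0 in the reported fit, in each of the fits that left out 1 library, and with DESeq2, limma-voom, DESeq2 size factors in edgeR, either other filter, library size as a covariate and the replicate block. It was 5 with the pan-leukocyte level, 5 with the macrophage level and 3 without control mice 3 and 4. Members at an unadjusted p under 0.05 numbered 7, between 3 and 7 with 1 library left out, and 1 with library size as a covariate. Members whose groups did not overlap numbered 1, between 1 and 2 with 1 library left out, 5 without control mice 3 and 4, and 0 with plain CPM or DESeq2 size factors. Genes called over the whole table numbered 9, between 1 and 27 with 1 library left out, 333 with DESeq2, 5 with limma-voom, 53 with no filter, 0 with library size, 530 and 317 with the pan-leukocyte and macrophage levels, and 276 without control mice 3 and 4. Pathway genes other than members numbered 0, between 0 and 1 with 1 library left out, 9 with DESeq2, 3 with no filter, 26 with the pan-leukocyte level, 26 with the macrophage level and 23 without control mice 3 and 4.

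Signs flipped as follows, and the cause was not tested. With the macrophage level log2 changes were 0.0014 for Ifnar2, 0.0045 for Jak1, 0.29 for Irf5, 1.96 for Irf8, 0.01 for Socs1, 1.39 for Ptpn6, 0.03 for Pias1, 0.76 for Il10ra and 0.17 for Csf2ra. With the pan-leukocyte level they were 0.01 for Jak1, 0.0027 for Irf5, 0.78 for Irf8 and 0.10 for Ptpn6. Without control mice 3 and 4 they were 0.01 for Irf5, 0.97 for Irf8 and 0.28 for Ptpn6. Library size gave -0.11 for Jak2 and -0.08 for Tyk2, and DESeq2 size factors gave 0.0021 for Jak1. With 1 library left out, changes ran from -0.02 to 0.02 for Jak1, -0.05 to 0.09 for Jak2, -0.04 to 0.09 for Tyk2, -0.12 to 0.03 for Socs1 and -0.03 to 0.04 for Ptpn1.

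Mouse numbers are shared by the labels of both diets, but same-numbered mice did not deviate together: correlations of their deviations from the diet means were 0.23, -0.36, 0.33, -0.07 and 0.15. With the replicate block 16 genes, 0 members and 0 other pathway genes passed, and 5 members had an unadjusted p under 0.05. Irf9 had an unadjusted p under 0.05 in all 20 alternative fits (edgeR, DESeq2 or limma), with adjusted p from 0.000455 to 0.873. Depth limits Irf4, Cish and Socs2, with 24, 111 and 270 counts in all.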
